A study of Mus musculus with 7 samples.

Results

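A group of 6 genes, whose products act on the clock proteins after these have been made, was examined for occupancy by BMAL1, REV-ERBα and RNA polymerase II (RNAP2) in mouse skeletal muscle. They code for the protein kinases CK1δ (Csnk1d), CK1ε (Csnk1e) and GSK3β (Gsk3b), and for the F-box proteins β-TrCP1 (Btrc), β-TrCP2 (Fbxw11) and FBXL21 (Fbxl21). The 6 genes were taken by name from the 21938 protein-coding genes of the mm10 annotation, and a peak was assigned to a gene when it overlapped the gene body or lay within 10 kb of any of its transcription start sites (TSSs). Across 6 lists of peaks this gave 140 of 527912 peaks. All samples were gastrocnemius muscle of male wild type C57BL/6J mice, 5 months old, on standard chow and a light:dark cycle with light for 12 hr. BMAL1 and RNAP2 were immunoprecipitated at Zeitgeber time (ZT) 4 and REV-ERBα at ZT 8, with 2 biological replicates each, and input DNA of the muscle served as background for the authors' peak calls. These samples include no mutant, no treatment and a single time for each factor, so an occupancy is given as it was found at that time of day, and no difference between conditions could be tested.

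The circadian clock turns on a delay that these enzymes set. The activator BMAL1:CLOCK binds E-boxes and switches on the Period (Per) and Cryptochrome (Cry) repressors, and also Rev-erbα (Nr1d1), whose product in turn represses Bmal1 from binding sites of nuclear receptors. CK1δ and CK1ε phosphorylate the PER proteins, and the marked PER proteins are bound by β-TrCP1 or β-TrCP2, the substrate-reading parts of an SCF ubiquitin ligase, and destroyed. GSK3β phosphorylates several clock proteins, among them REV-ERBα and CRY2. FBXL21 binds CRY proteins. How fast the clock runs depends on these steps, and whether the genes for the enzymes are themselves occupied by the clock's transcription factors is what the peak lists can show.

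The BMAL1 sites that the results turn on lie in Gsk3b and Csnk1e. Each sequence was read from the mm10 genome around the summit of a peak, 5′ to 3′ on the strand of the gene, and is shown in lower case with any motif searched for in capitals. The motifs searched on both strands were the E-box CACGTG, the related hexamers CACGTT and CAGCTG, the monomer site AGGTCA bound by REV-ERBα, its variant GGGTCA, and the D-box TTATGNAA. None of these contains another. Capitals mark letters only and do not show which factor binds there. The paper also reports motifs of myogenic regulatory factors as enriched in its BMAL1 and REV-ERBα peaks. A CAGCTG found here was assigned neither to BMAL1 nor to those factors. The first pair belongs to the BMAL1 regions of Gsk3b that were present in both replicates, 1 upstream of the gene (chr16:38085296-38085446, around the replicate 1 summit, capitals CAGCTG) and 1 in an intron (chr16:38101134-38101284, around the replicate 2 summit, capitals AGGTCA). In the intronic region the summits lay far apart, and the window around the replicate 1 summit held none of the motifs. The printed intronic window lies outside the replicate 1 peak of that region. The third holds the strongest BMAL1 peak among the 6 genes together with a REV-ERBα summit (chr16:38201221-38201520, a Gsk3b intron, no motif). The fourth is the place in Csnk1e, outside its exons, where a BMAL1 summit lay directly beside a full E-box (chr15:79432312-79432462, minus strand, capitals CACGTG). The last is shown for contrast and comes from Per1 (chr11:69094820-69094970, capitals CACGTG), a gene that BMAL1 occupied strongly.
Gsk3b upstream: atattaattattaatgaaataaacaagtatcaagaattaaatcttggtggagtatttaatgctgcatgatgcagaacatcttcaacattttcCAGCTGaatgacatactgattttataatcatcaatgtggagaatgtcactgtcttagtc
Gsk3b intron: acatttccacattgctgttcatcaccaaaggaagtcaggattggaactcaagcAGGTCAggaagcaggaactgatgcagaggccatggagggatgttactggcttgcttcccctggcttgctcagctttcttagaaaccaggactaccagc
Gsk3b distal intron: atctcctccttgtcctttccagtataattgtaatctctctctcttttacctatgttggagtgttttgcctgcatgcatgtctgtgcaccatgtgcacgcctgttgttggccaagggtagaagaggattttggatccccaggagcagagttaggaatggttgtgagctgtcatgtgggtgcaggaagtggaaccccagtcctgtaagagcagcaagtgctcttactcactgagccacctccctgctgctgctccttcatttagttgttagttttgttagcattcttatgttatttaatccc
Csnk1e BMAL1 summit: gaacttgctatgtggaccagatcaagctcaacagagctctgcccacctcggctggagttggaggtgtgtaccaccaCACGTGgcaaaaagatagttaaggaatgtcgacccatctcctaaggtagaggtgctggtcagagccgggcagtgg
Per1: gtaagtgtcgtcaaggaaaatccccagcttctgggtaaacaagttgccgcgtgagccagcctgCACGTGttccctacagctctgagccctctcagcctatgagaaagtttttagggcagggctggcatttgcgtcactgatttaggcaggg

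Peaks at the 6 genes were seldom shared between the replicates of BMAL1 or REV-ERBα, as was so over the whole lists. The lists hold 28881 to 177669 peaks, called by the authors at a p-value cutoff of 0.05, and the strength of a peak is given here as its deposited −log10 p at the summit. A region was called reproducible when both replicates of a factor had a peak in it. Over the whole lists, 34737 and 177669 BMAL1 peaks gave 2742 such regions, and 28881 and 29934 REV-ERBα peaks gave 1263. At the 6 genes, 14 and 54 BMAL1 peaks gave 2, and 5 and 9 REV-ERBα peaks gave 0. For BMAL1, 1 of the 6 genes (Gsk3b) had such a region, against 6.81% of all protein-coding genes. Among the 11850 genes with windows within the range of the 6 (25.4 to 176 kb), the share was 7.52%. That range is broad, so this background is not matched to the window lengths of the 6 genes, whose median is 84.2 kb. For REV-ERBα, 0 of the 6 had one, against 4.44% of all genes and 4.69% of those in that range of windows. Shared sites, which needed a peak of at least 3 of the 4 clock factor lists, were present at 0 of the 6 genes, against 1.62% and 1.59%. With 6 genes, counts of 0 or 1 cannot be told apart from these background shares.

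The transcription factors and repressors of the clock were set beside the enzymes in the same lists. Of 12 such genes (Per1, Per2, Per3, Cry1, Cry2, Nr1d1, Nr1d2, Bhlhe40, Bhlhe41, Ciart, Dbp and Tef), 12 had a reproducible BMAL1 region, 10 a REV-ERBα region and 12 a shared site. The study named most of these genes from these very samples, so neither their count nor their strength is independent evidence. Their lower −log10 p of the replicates ran from 3.36 to 21.7 for BMAL1 with a median of 8.68, whereas the best Gsk3b region reached 2.40. Over the 1494 protein-coding genes with a reproducible BMAL1 region, the median of this value was 1.87. Per1, the first of the Period repressors, had 21.2 for BMAL1 and 5.41 for REV-ERBα, Per2 had 5.68 and 7.49, and Nr1d1 had 20.4 and 5.39. No difference between the lists of genes was tested.

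**Figure D1:**
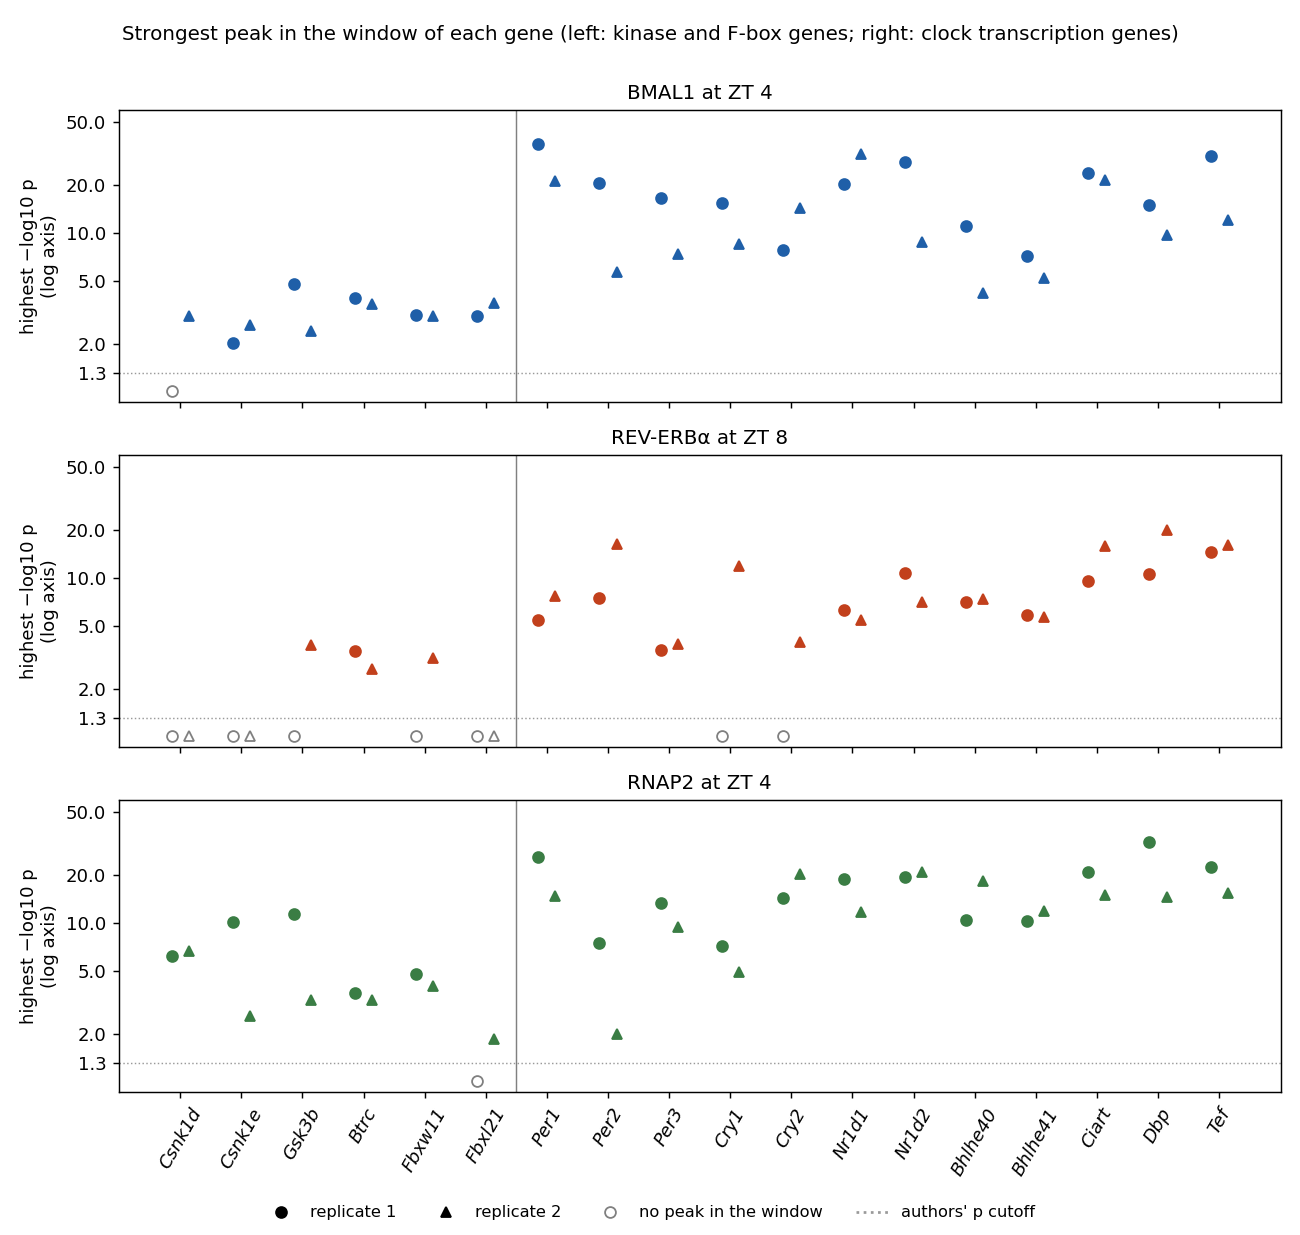
Highest −log10 p (log axis) of any peak in the window of each gene, for the 6 kinase and F-box genes at the left and 12 clock transcription genes at the right, with circles for replicate 1, triangles for replicate 2 and open symbols where the window held no peak. BMAL1 values of the 6 genes stay at or below 4.72, and REV-ERBα values at or below 3.75, while RNAP2 reached 11.3 at Gsk3b.

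The windows of the 6 genes are long, so peaks were also counted per length. They cover 583 kb in all, with a median of 84.2 kb against 30.2 kb for all protein-coding genes, from 25.4 kb for Fbxl21 to 176 kb for Btrc. BMAL1 replicate 1 had 14 peaks in them, or 2.40 per 100 kb, against 1.41 per 100 kb over the windows of all genes, and replicate 2 had 54, or 9.27 against 7.79. REV-ERBα gave 5 peaks in replicate 1 (0.858 per 100 kb against 1.21) and 9 in replicate 2 (1.54 against 1.28). RNAP2 gave 21 (3.60 against 4.12) and 37 (6.35 against 6.99). The density thus lay above that of all genes in both BMAL1 lists, on either side of it in the REV-ERBα lists and below it in both RNAP2 lists.

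**Figure D2:**
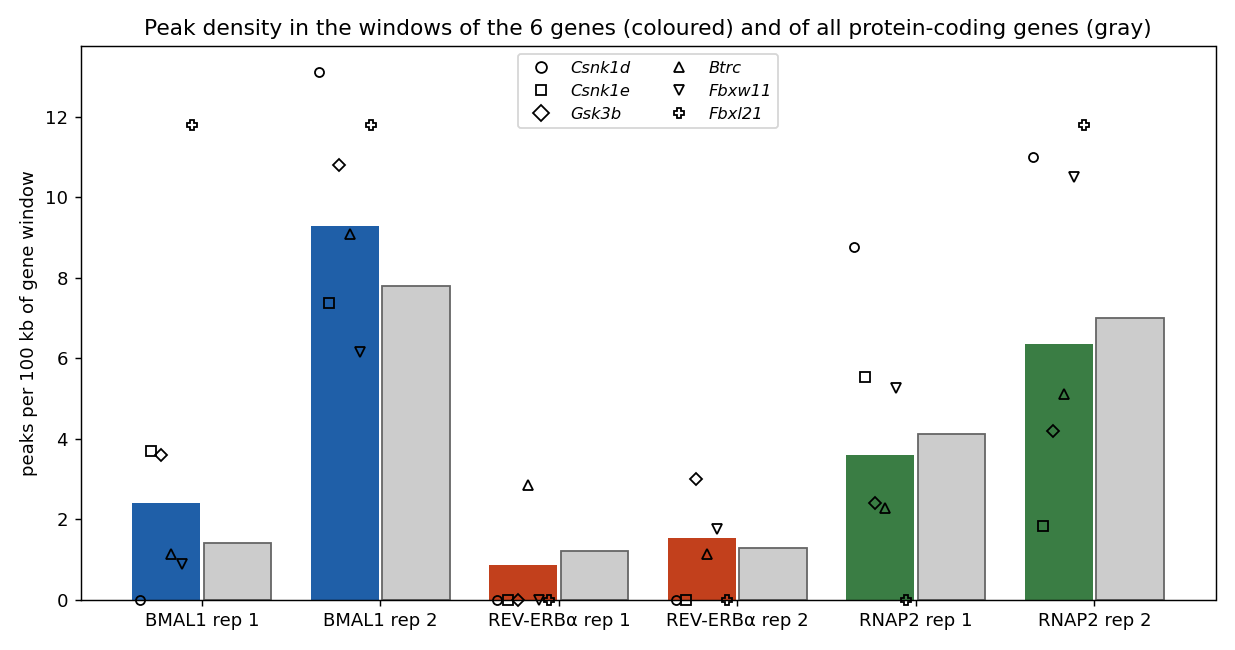
Peaks per 100 kb of gene window in each list (linear axis from 0), with coloured bars for the 6 genes together, gray bars for the windows of all protein-coding genes and open symbols for each of the 6. The single genes spread widely around both bars, from 0 to 11.8 in BMAL1 replicate 1, and a symbol for a short gene can rest on 3 peaks.

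The median −log10 p of the peaks at the 6 genes was 2.57 in BMAL1 replicate 1 and 1.87 in replicate 2, beside 2.48 and 1.87 over the whole lists. For REV-ERBα it was 2.09 and 2.59, beside 2.50 and 2.59. Of the 82 BMAL1 and REV-ERBα peaks at the 6 genes, 0 passed a −log10 q of 1.3, a threshold that 0.265% and 0.0203% of the BMAL1 peaks and 1.12% and 1.41% of the REV-ERBα peaks passed. The weak end of each list is coarse, since its 5 most common −log10 p values hold 62.7 to 79.4% of its peaks, and equal values at different genes are therefore frequent. Of the BMAL1 peaks at the 6 genes, 9 of 14 and 42 of 54 were intronic, beside 64.3% and 63.7% of the peaks at the 11850 genes with windows of 25.4 to 176 kb. For REV-ERBα the counts were 3 of 5 and 8 of 9, beside 59.3% and 60.1%. Introns more than 1 kb from a TSS make up 74.8% of the windows of the 6 genes.

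**Figure D3:**
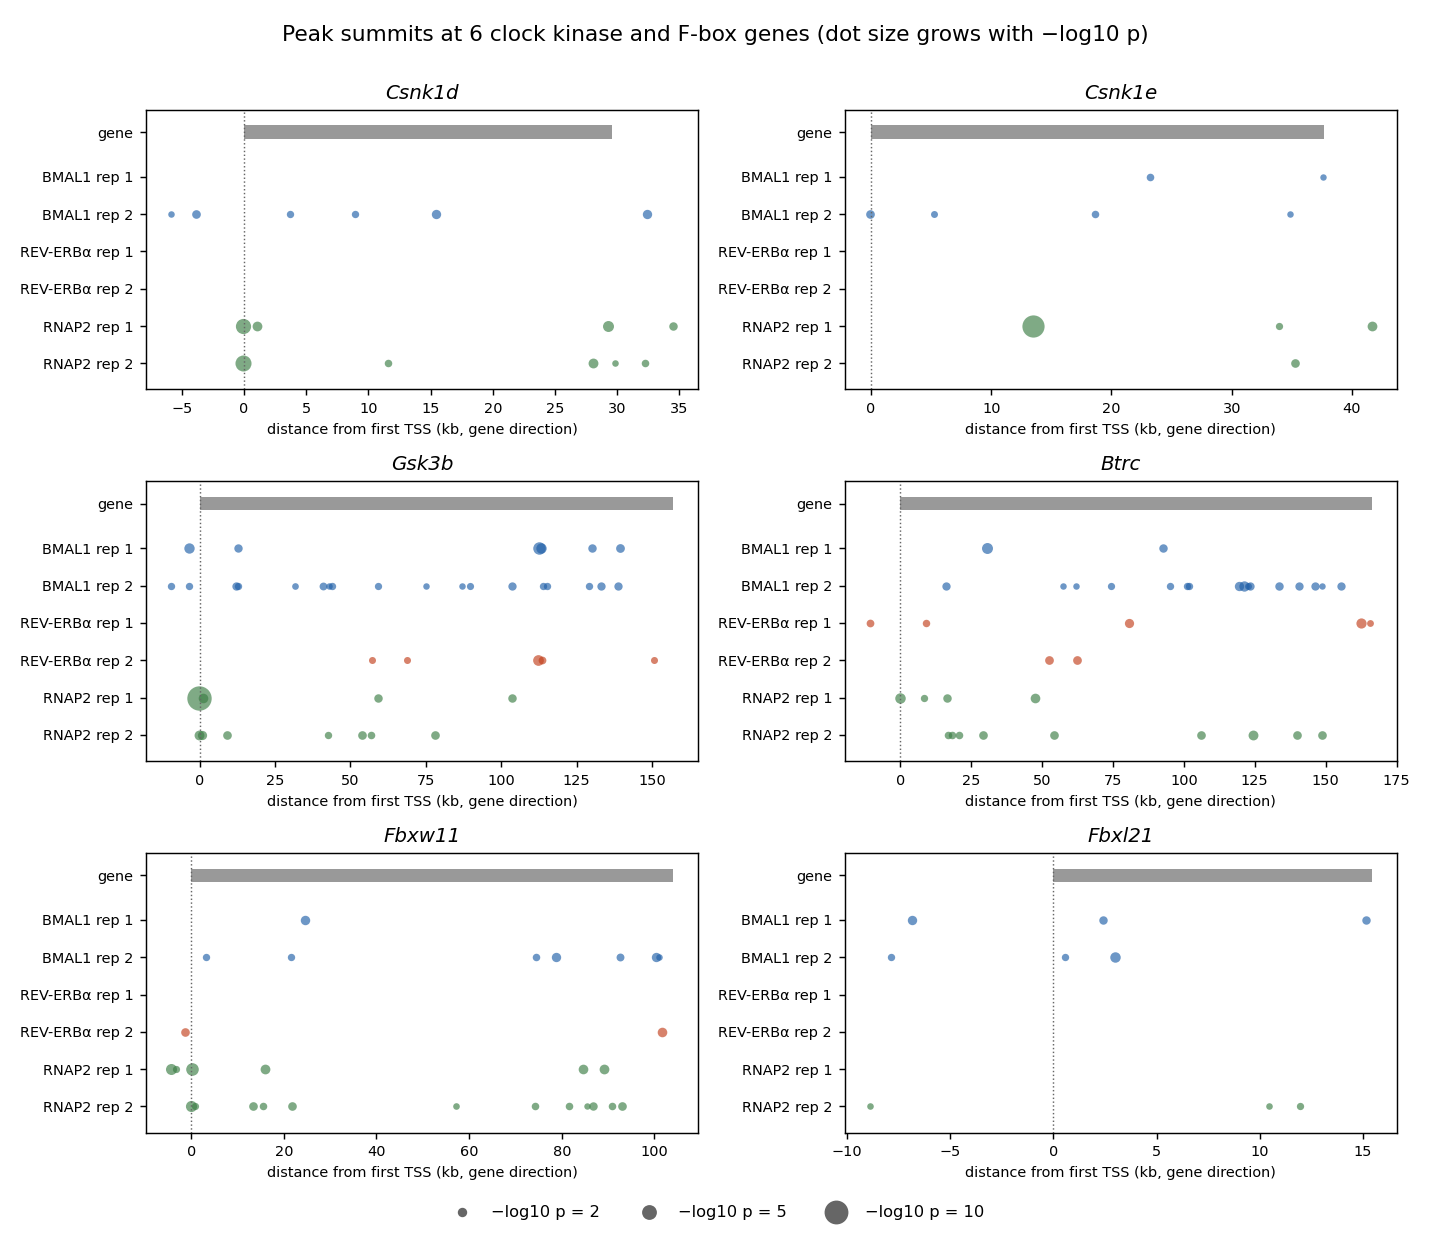
Summits of all 140 peaks by distance from the first TSS (kb, in the direction of the gene), with 1 panel per gene, 1 row per list, a gray bar for the gene body and dots that grow with −log10 p. RNAP2 dots stack at the first TSS of Csnk1d, Gsk3b and Fbxw11 in both replicates, and BMAL1 and REV-ERBα dots lie scattered along the gene bodies.

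Among the kinases, Gsk3b (ENSMUSG00000022812, chr16:38089001-38246084, plus strand) carried the only reproducible BMAL1 regions of the 6 genes. The upstream region (chr16:38085067-38085627) reached 3.54 in BMAL1 replicate 1 and 1.87 in replicate 2 on the −log10 p scale, with fold enrichments over input of 2.67 and 2.02. Its summits lay 3630 and 3687 bp before the TSS, 57 bp apart. The intronic region (chr16:38101126-38101984) had 2.45 and 2.40, with folds of 2.15 and 2.30 and summits 481 bp apart, at 11402 and 10921 bp after a TSS. In replicate 2 it also held a weaker peak (chr16:38101718-38101984), with a −log10 p of 1.87. The summit of that peak, at 11558 bp, lay nearer to that of replicate 1. Both regions had a −log10 q of 0 in each replicate, and in replicate 2 the first was no stronger than a peak that 78.3% of the list matched or exceeded. Gsk3b had 6 BMAL1 peaks in replicate 1 and 18 in replicate 2, and they coincided at 2 places.

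The strongest BMAL1 peak of any of the 6 genes also lay in Gsk3b, but in 1 replicate only. It reached a −log10 p of 4.72 in replicate 1 (chr16:38201091-38201631, an intron), a value that 1.70% of that list reached, and replicate 2 had no peak there. REV-ERBα replicate 2 had its own strongest Gsk3b peak at the same place, with 3.75, and REV-ERBα replicate 1 had no peak anywhere in the gene. A second site a short way downstream (chr16:38202157-38202716) had peaks in the same pair of lists, at 3.54 for BMAL1 replicate 1 and, for REV-ERBα replicate 2, at a level that 79.7% of the list matched or exceeded. The TSS nearest to these sites was that of Gm27931, a small RNA gene within Gsk3b. With 2 of the 4 lists each, neither site met the rule for shared occupancy. The remaining REV-ERBα peaks of Gsk3b, also in replicate 2, had a −log10 p of 1.69 each.

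Csnk1e (ENSMUSG00000022433, chr15:79417856-79455566, minus strand) had 2 BMAL1 peaks in replicate 1 and 4 in replicate 2, and none overlapped. The highest values were 2.01 and 2.61, of which the first was the lowest among the 5 genes with a peak in that list, and the REV-ERBα lists had 0 peaks each. One of the replicate 1 peaks nevertheless held the only CACGTG found within 100 bp of any BMAL1 or REV-ERBα summit at the 6 genes. The E-box (chr15:79432381-79432386) lay directly beside the summit, which was 739 bp downstream of an alternative TSS and so within 1 kb of it, at a −log10 p of 2.01 that 79.5% of the list matched or exceeded. In replicate 2 the peak nearest to the first TSS of Csnk1e had its summit 91 bp before it, with 2.61.

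Csnk1d (ENSMUSG00000025162, chr11:120961749-120991330, minus strand) had 0 BMAL1 peaks in replicate 1 and 6 in replicate 2, of which the highest pair had a −log10 p of 2.98, and 0 REV-ERBα peaks in either list. It was the only gene of the 6 with reproducible regions of both factors shortly outside its window. The nearest BMAL1 region (chr11:120951537-120952336) had 1.91 and 2.88 and the nearest REV-ERBα region (chr11:120949226-120950001) had 1.94 and 1.40. They lay 13.3 and 15.7 kb from the closest Csnk1d TSS, and 798 and 532 bp from a TSS of Slc16a3, the neighbouring gene for the lactate transporter MCT4. They were therefore outside the Csnk1d window and nearer to the promoter of another gene.

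The F-box genes had no reproducible region of either clock factor. Btrc (ENSMUSG00000025217, chr19:45363734-45530013, plus strand) had 2 BMAL1 peaks in replicate 1, the higher at 3.88, and 16 in replicate 2, the highest at 3.53, at different places. It was the only one of the 6 with REV-ERBα peaks in both replicates, 5 in replicate 1 with up to 3.45 and 2 in replicate 2 with 2.64 each, but these did not overlap either. A BMAL1 peak of replicate 2 with 1.40 met a REV-ERBα peak of replicate 2 with 2.64 at chr19:45425269-45426046. The strongest REV-ERBα peak of replicate 1 lay near the end of the gene, where the TSS of Poll, a DNA polymerase gene, was closer than that of Btrc.

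Fbxw11 (ENSMUSG00000020271, chr11:32642724-32746816, plus strand) had 1 BMAL1 peak in replicate 1, at 3.03, and 7 in replicate 2, with up to 2.98. REV-ERBα had 0 peaks in replicate 1 and 2 in replicate 2, and 1 of them had its summit 1389 bp before the TSS, with 2.59. Fbxl21 (ENSMUSG00000035509, chr13:56522472-56537898, plus strand), the shortest gene, had 3 BMAL1 peaks in each replicate and 0 REV-ERBα peaks. The highest lay 6858 bp before the TSS in replicate 1, at a −log10 p that 26.7% of that list matched or exceeded, and 2963 bp after it in replicate 2, at 3.60 (5.37%). Its 3 peaks in the shorter BMAL1 list amount to 11.8 per 100 kb, the highest density of the 6 in that list, and 0 of the 3 overlapped a peak of replicate 2.

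A peak in a single list was common at genes of every kind. BMAL1 replicate 1 had a peak at 5 of the 6 genes, against 38.2% of all protein-coding genes, and replicate 2 at 6 of 6, against 84.4%. REV-ERBα replicate 1 had one at 1 of 6 (38.7% of all genes) and replicate 2 at 3 of 6 (40.1%). For RNAP2 the counts were 5 of 6 (76.9%) and 6 of 6 (86.5%). The background counts short windows as well as long ones, and the windows of Csnk1e, Fbxw11, Gsk3b and Btrc are longer than those of 73.6 to 94.2% of all genes.

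Beyond the windows, the distance to the next reproducible region of a clock factor was read. For BMAL1 it lay 233 kb from the closest TSS of Fbxl21, 448 kb from Fbxw11, 670 kb from Btrc and 1215 kb from Csnk1e, where it was at Pvalb, the gene for the calcium buffer parvalbumin. For REV-ERBα the distances were 203 kb for Csnk1e (at Cby1, with −log10 p of 3.67 and 5.60), 338 kb for Btrc (at Mgea5, with 4.92 and 15.1), 1594 kb for Fbxl21, 2726 kb for Gsk3b and 3816 kb for Fbxw11. These are distances only, and no contact between a region and a promoter was measured. The whole genome held 2742 BMAL1 and 1263 REV-ERBα regions, and no distances for other genes are set beside these.

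Reproducible RNAP2 regions, which need only a called peak in both replicates, lay at the promoters of some of the genes. A reproducible RNAP2 region was present at 4 of the 6 genes, against 41.1% of all genes and 47.5% of those with windows of 25.4 to 176 kb. At a promoter, meaning within 1 kb of a TSS, such a region was present at 3 of the 6 (Csnk1d, Gsk3b and Fbxw11), against 30.5% and 38.2%. With 6 genes, these counts cannot be told apart from the background shares. The values below are −log10 p of peaks, which grow with the number of reads as well as with enrichment, and they are no measure of transcription rate. The RNAP2 lists themselves fitted the labelled tissue, since 8 of 8 skeletal muscle markers had a reproducible RNAP2 region (2.26 to 46.8) and 1 of 10 markers of liver, fat, blood, endothelium and neuron did, at 1.99.

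Csnk1d had the most even signal. Its promoter region (chr11:120990404-120991692) reached −log10 p values of 6.22 and 6.69 in the replicates, with folds of 3.91 and 4.17, a −log10 q of 2.93 in both, and summits 101 and 116 bp before the TSS. It was the only region of the 6 genes that passed a −log10 q of 1.3 in both replicates, and 35.2% of the 6701 genes with a reproducible promoter region were at least as strong. The sequence around the summit (chr11:120991331-120991531, minus strand, capitals CAGCTG) is followed by RefSeq promoters of Gsk3b (chr16:38088751-38089050) and Csnk1e (chr15:79442094-79442393, minus strand, capitals CAGCTG), on build GRCm38.p6, shown because the RNAP2 summit of replicate 1 fell in each. The Csnk1e summit also fell in an overlapping RefSeq promoter (chr15:79442008-79442307) that held none of the motifs, and the Gsk3b summit of replicate 2 lay just outside the printed window.
Csnk1d: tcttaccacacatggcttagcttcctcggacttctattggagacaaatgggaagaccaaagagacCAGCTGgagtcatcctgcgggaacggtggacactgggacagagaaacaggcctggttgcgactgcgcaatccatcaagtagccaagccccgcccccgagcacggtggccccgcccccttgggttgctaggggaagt
Gsk3b: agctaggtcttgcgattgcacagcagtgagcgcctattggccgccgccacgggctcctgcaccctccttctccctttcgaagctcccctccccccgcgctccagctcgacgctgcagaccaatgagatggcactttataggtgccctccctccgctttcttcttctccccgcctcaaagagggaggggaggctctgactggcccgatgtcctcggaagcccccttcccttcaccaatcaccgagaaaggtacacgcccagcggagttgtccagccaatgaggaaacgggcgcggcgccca
Csnk1e: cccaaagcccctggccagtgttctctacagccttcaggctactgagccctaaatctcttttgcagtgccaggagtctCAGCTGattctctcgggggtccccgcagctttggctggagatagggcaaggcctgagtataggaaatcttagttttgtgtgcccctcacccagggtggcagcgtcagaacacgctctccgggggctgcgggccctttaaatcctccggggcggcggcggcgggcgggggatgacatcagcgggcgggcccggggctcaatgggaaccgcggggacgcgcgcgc

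At Gsk3b the replicates differed more. The promoter region (chr16:38088371-38090076) had 11.3 in replicate 1, the highest value of the 6 genes, and 3.25 in replicate 2, with folds of 6.25 and 2.77 and summits 230 and 282 bp before the TSS. The −log10 q was 7.52 in replicate 1 and 0.0609 in replicate 2. By the lower of its values, 73.6% of the genes with a promoter region were at least as strong. Fbxw11 (chr11:32642206-32643201) had 4.77 and 3.97 with folds of 3.35 and 3.11, and a −log10 q of 1.64 and 0.592. Its summits were 181 bp apart and lay 12 and 51 bp before the TSS nearest to each, which was not the same TSS. By the lower value, 61.9% of the genes with a promoter region were at least as strong as Fbxw11. Among the 3, Gsk3b was thus the highest in replicate 1 and the lowest in replicate 2.

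Csnk1e, Btrc and Fbxl21 lacked a reproducible promoter region. Csnk1e had a strong peak in replicate 1, with a −log10 p of 10.1, a −log10 q of 6.43 and its summit 28 bp after a TSS, but replicate 2 had no peak there. The 1 peak of replicate 2 in Csnk1e had 2.60 and lay 1028 bp from another TSS. Btrc had a peak of 3.62 with its summit 11 bp after the TSS in replicate 1, which 27.8% of that list matched or exceeded, and none at a promoter in replicate 2. Its reproducible region (chr19:45380131-45380505) was intronic, with 2.50 and 1.99. Fbxl21 had 0 RNAP2 peaks in replicate 1 and 3 weak ones in replicate 2, the highest at 1.84, none at a promoter. The median −log10 p of the RNAP2 peaks at the 6 genes was 3.21 in replicate 1 and 2.48 in replicate 2, beside 3.21 and 1.99 for the whole lists.

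**Figure D4:**
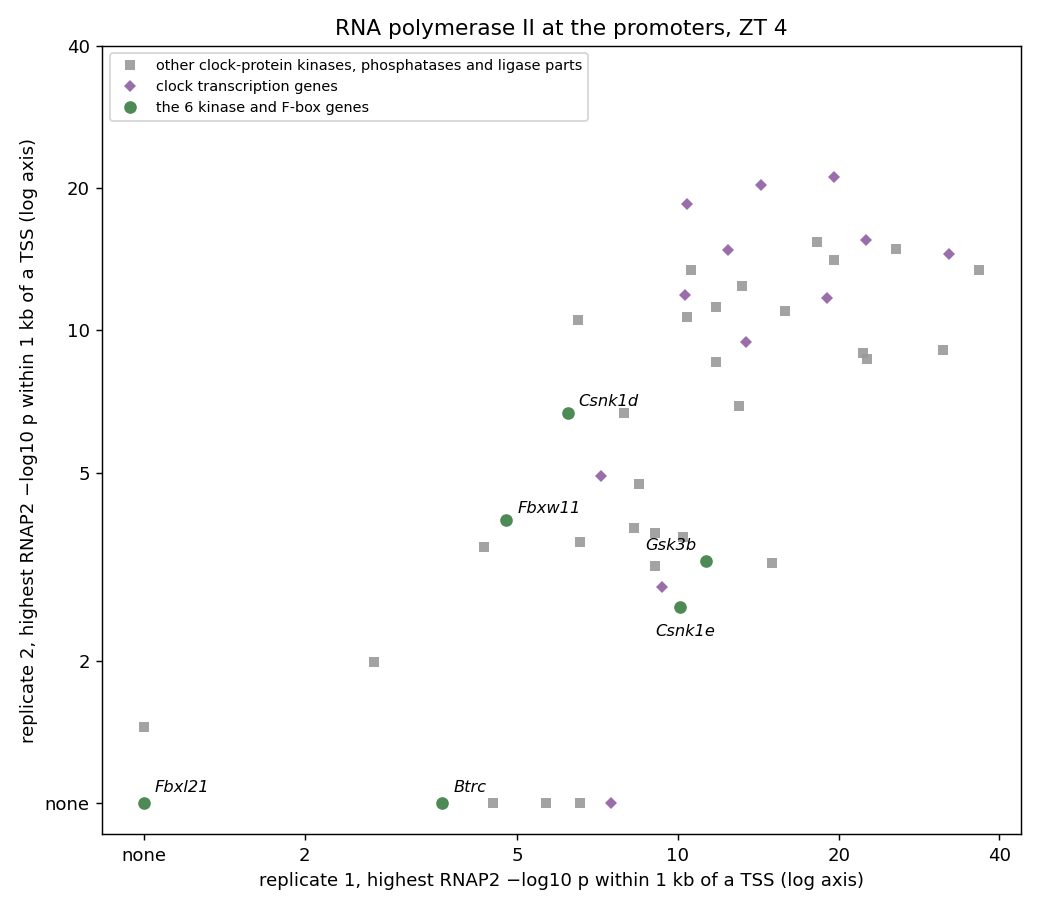
Highest RNAP2 −log10 p of peaks that reach within 1 kb of a TSS, replicate 1 against replicate 2 (log axes, with "none" where there was no such peak), for the 6 genes (green circles, named), 29 other genes that act on clock proteins (gray squares) and 12 clock transcription genes (purple diamonds). Csnk1d, Gsk3b and Fbxw11 lie where both replicates have a peak, Btrc has one in replicate 1 only, Fbxl21 has none, and the Csnk1e point joins peaks at 2 different TSSs.

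Other enzymes that act on clock proteins were read by the same rules. The set held 29 such genes (kinases, phosphatases, ubiquitin ligase parts and deubiquitinases). Of these, 7 had a reproducible BMAL1 region (6.81% of all protein-coding genes) and 3 a REV-ERBα region (4.44%). A shared site was present at 1 (1.62%), and a reproducible RNAP2 region at a promoter at 24 (30.5%). The windows of the 29 genes have a median of 48.0 kb and reach 421 kb, against a median of 30.2 kb for all genes. No difference from these shares was tested. The strongest BMAL1 regions of the 7 genes had a lower −log10 p of 1.40 to 2.40, the range in which Gsk3b also fell. Their median was 2.01, beside 1.87 over all protein-coding genes with such a region. The BMAL1 regions of Csnk1g3, Csnk2a1, Csnk2a2, Prkca, Dyrk1a and Ppp2ca were intronic. Stub1, the gene for the ubiquitin ligase CHIP, was the one with both factors at its promoter, with 2.01 and 2.40 for BMAL1 (chr17:25832562-25833525) and 2.88 and 2.64 for REV-ERBα. A second REV-ERBα region in the Stub1 window lay 100 bp from a TSS of Rhbdl1. The other genes with REV-ERBα at the promoter were Ppp1cc, a catalytic subunit of protein phosphatase 1, with 3.11 and 4.87, and Usp2, a deubiquitinase, with 2.66 and 1.83.

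Among the CK1 and GSK3 relatives of the kinase genes, Csnk1a1, Csnk1g2 and Gsk3a had reproducible RNAP2 at the promoter and no reproducible region of a clock factor, and Csnk1g1 and Csnk1g3 lacked such a promoter region. Csnk1a1, the gene for CK1α, had 10.6 and 13.4 and Csnk1g2 had 6.55 and 3.57, beside 6.22 and 6.69 for Csnk1d. Gsk3a had 8.29 and 3.81 beside 11.3 and 3.25 for Gsk3b. Over all genes with a reproducible promoter region the median of the lower −log10 p was 4.73, over the 24 it was 8.64, and over the 3 of the 6 genes it was 3.97. These medians were not compared by a test.

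Motifs were counted around the summits of all peaks of the 6 genes, beside the share of each whole list. In BMAL1 replicate 1, CACGTG lay within 100 bp of the summit in 1 of 14 peaks (1.72% of the whole list), and in replicate 2 in 0 of 54 (2.23%). CACGTT was found in 0 of 14 (2.05%) and 2 of 54 (2.28%), CAGCTG in 1 of 14 (5.78%) and 4 of 54 (8.79%), AGGTCA in 0 of 14 (9.58%) and 9 of 54 (11.9%), GGGTCA in 0 of 14 (5.49%) and 6 of 54 (8.13%), and TTATGNAA in 0 of 14 (6.49%) and 1 of 54 (3.83%). In the REV-ERBα lists, AGGTCA was found in 1 of 5 peaks (11.5%) and 0 of 9 (11.5%), and GGGTCA in the same 1 of 5 (8.22%) and 0 of 9 (7.60%). That peak was in an intron of Btrc, with a −log10 p of 1.94. Reproducible regions were counted around the summit of the stronger replicate only. Of the 2 reproducible BMAL1 regions of Gsk3b, 1 held CAGCTG, starting 17 and 74 bp after the summits of the replicates, and 0 held CACGTG, against 7.08% and 2.55% of all 2742 reproducible BMAL1 regions. By the same rule 0 of the 2 held AGGTCA, against 10.7% of all regions. The AGGTCA printed for the intronic region lay near the summit of replicate 2, the weaker one there. At the strongest BMAL1 region of each of the 12 clock transcription genes, most of them named by the study from these samples, CACGTG was present in 9.

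The RefSeq promoters (250 bases before to 50 after a start) of Csnk1e, Gsk3b, Fbxw11 and Fbxl21 were searched for the same motifs. Among 7 promoters of these 4 genes, 0 held CACGTG (7.15% of 32851 promoters), 0 AGGTCA (16.3%), 0 GGGTCA (13.7%), 0 CACGTT (4.68%) and 0 TTATGNAA (3.38%), and 1, that of Csnk1e printed above, held CAGCTG (16.3%). With 7 promoters, several of them overlapping windows of Csnk1e, counts of 0 or 1 cannot be told apart from these background shares. The Csnk1d and Btrc promoters were not read from that table. An absent motif says only that these letters were not in the window.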

How the data were processed

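ChIP-seq peak lists of gastrocnemius muscle were used for BMAL1, REV-ERBα and RNAP2, with 2 samples each. The authors aligned reads to mm10 with BWA (7.12 per the submitters' processing notes), kept uniquely mapped reads without duplicates, brought both replicates of a factor to a like number of reads and ran MACS2 2.1.1 on each sample, with input DNA as control and 0.05 as p-value cutoff. For each peak, the deposited −log10 p, −log10 q and fold enrichment over input at the summit are the authors' values. The deposited score of each peak was not used. Reads per peak were not used here, so the depth behind a single peak is unknown and no counting interval is given.

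Peaks were assigned to GENCODE M21 genes (body, or within 10 kb of a TSS) and merged into regions where lists overlapped by at least 1 bp. With no contrast between conditions, members were counted beside the share of all protein-coding genes, and no test was run. Regions in both replicates, or shared by at least 3 of the 4 clock factor lists, were defined after the study's description but merged anew, so their number need not equal the study's. Motifs were searched within 100 bp of summits. Coordinates were read with pysam 0.24.0 and values computed with Python 3.11.15 and numpy 2.4.6, and the counting code was checked on simulated peaks. All 6 genes were named, together with other enzyme genes that had a reproducible region of a clock factor, Per1, Per2 and Nr1d1 for values, and genes whose TSS was nearer to a described region. The CK1 and GSK3 relatives were named after their values were seen. The members and lists were chosen with earlier results of these data known. The background of genes with windows in the range of the 6 (25.4 to 176 kb) was added after seeing the data. Alternatives were stricter p and q thresholds, other overlap and window rules, lists of equal length, and each replicate left out.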

Additional observations from a re-analysis of the deposited data

How the results depend on the processing

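The count of genes with a reproducible BMAL1 region was 0 in place of 1 with peaks of −log10 p of at least 3, with peaks of −log10 q of at least 1.3, with every list shortened to the 28881 strongest peaks, and within 1 kb of a TSS only. The share of all protein-coding genes fell as well, from 6.81% to 0.356%, 0.109%, 1.45% and 0.843%. With the q threshold the count for RNAP2 was 1 in place of 4, and at promoters 1 in place of 3 (Csnk1d), while the share of all genes with an RNAP2 region fell from 41.1% to 18.9%. The RNAP2 count was 3 with the p threshold (29.4% of all genes) and with lists of equal length (30.1%). It was also 3 within 10 kb (38.2%) and within 1 kb of a TSS only (30.5%). Taking 1 list alone in place of both gave 5 (without BMAL1 replicate 2) to 6 genes (without BMAL1 replicate 1) for BMAL1, 1 (without REV-ERBα replicate 2) to 3 (without REV-ERBα replicate 1) for REV-ERBα, 5 to 6 for RNAP2, and 4 to 5 for RNAP2 at promoters, where the list of replicate 1 alone gave 5. These counts rise by construction, since a region then needs 1 list. Overlap of the shorter peak, summit distance and coding TSSs left the 5 counts as they were, gene body only left the 4 counts run under it, and the count for REV-ERBα and that for shared sites were 0 under every alternative that kept both lists. Under the overlap and summit rules, and within 10 kb of a TSS only, the best BMAL1 value of Gsk3b was 1.87 in place of 2.40.

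No paired analysis was possible because the results are counts of peaks called per sample and come from no test. With 2 replicates, many weak peaks and unknown depth per peak, a missing peak shows only that none was called, and REV-ERBα and BMAL1 were sampled at different times.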
